A study of Nicotiana tabacum with 6 samples.

Results

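The genes described here encode enzymes that break down amino acids in cultivated tobacco (Nicotiana tabacum). They are the 12 genes, of 69500 in the deposited table, whose first deposited symbol is AASS (2 genes), HGO (3 genes), BCE2 (2 genes) or GABA-TP1 (5 genes). The 4 symbols were chosen with results of the same comparison known, since AASS genes stood among its strongest differences. The levels and fold changes below therefore describe the genes and are not independent evidence of a response. Low nitrogen seedlings were fed 0.75 mM ammonium nitrate, and control seedlings 7.5 mM. Feeding lasted 15 days, and each group has 3 libraries. The labels name the material only as seedling, give no cultivar, organ or plant age, and do not say whether libraries came from separate plants. P-values therefore measure the spread between these 6 libraries, part of which may be technical.

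Plants break down lysine, tyrosine and the branched-chain amino acids (leucine, isoleucine and valine) by routes that end in intermediates of respiration. In Arabidopsis these routes are known to be active when carbohydrate is short, for example in prolonged darkness or senescence. Gamma-aminobutyrate (GABA) is made from glutamate and returned to the citric acid cycle by the GABA shunt, a short side path. AASS is the bifunctional enzyme that opens the saccharopine route of lysine breakdown. HGO is homogentisate dioxygenase, which opens the ring of homogentisate in tyrosine breakdown, the same compound from which tocopherols and plastoquinone are made. BCE2 is the acyltransferase (E2) subunit of the branched-chain ketoacid dehydrogenase complex, and the deposited symbol gives DIN3, a name for dark-inducible genes of Arabidopsis, as its synonym. GABA-TP1 is a GABA transaminase, which converts GABA to succinic semialdehyde.

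Both AASS genes, both counted HGO genes and both BCE2 genes were higher in every low nitrogen library than in any control library, by 1.65-fold to 4.42-fold. The most highly counted GABA-TP1 gene was slightly lower in low nitrogen, and the other GABA-TP1 genes overlapped between groups. Of the 12 genes, 10 passed edgeR's filter on low counts and were tested with all 38482 genes that passed it. With edgeR's quasi-likelihood test and Benjamini-Hochberg adjustment, 0 of the 10 passed the threshold of 0.05, as did 0 of the 38482 (0%), and the smallest adjusted p was 0.138. At an unadjusted p under 0.05 the count was 6 of 10 higher and 0 lower in low nitrogen, against 6.10% higher and 5.66% lower over all genes tested. Groups did not overlap for 6 of 10 higher genes and 1 lower gene, against 9.66% and 8.54% over all genes tested. The median log2 fold change was 0.77 over the 10 genes and 0.003 over all genes tested. With DESeq2, 5 of the 10 passed its adjusted threshold of 0.05 as higher and 0 as lower, against 0.709% and 0.819% over all genes tested. These counts describe genes chosen on this comparison, and nothing is read from their excess over the background. In such bulk libraries, more cells of a type and more RNA per cell cannot be told apart.

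Total counts per library ran from 13027374 to 15620067. Control replicate 3 stood apart from the other controls, with a correlation across genes (log2 CPM, genes not being independent replicates) of 0.923 and 0.913 with control replicates 1 and 2, which correlated with each other at 0.963. The summed level of 271 photosynthesis genes was 1199, 546 and 242 CPM in low nitrogen replicates 1 to 3 and 198, 159 and 2050 CPM in control replicates 1 to 3. Transcripts of green tissue thus formed a small and uneven part of the libraries, highest in control replicate 3. The 4 nicotine synthesis genes with the symbols QPT and PMT2, active in tobacco roots, summed to 943, 1054 and 886 CPM in low nitrogen and 693, 945 and 1212 CPM in controls. The part of tissue makeup in the differences below was not tested.

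The AASS genes showed the highest fold changes among these genes. AASS (Nitab4.5_0001114g0030) was at 83.7, 101 and 89.2 CPM in low nitrogen replicates 1 to 3, against 21.4, 15.8 and 24.8 CPM in control replicates 1 to 3 (CPM, the share of a library's counts after TMM scaling, used for all single genes). The lowest low nitrogen library was more than 3 times the highest control library, and the means were 91.4 ± 9.08 CPM in low nitrogen and 20.7 ± 4.56 CPM in controls (SD, n = 3 each). Its log2 fold change was 2.15 (SE 0.19), or 4.42-fold with a 95% interval of 3.23 to 6.06. AASS (Nitab4.5_0000055g0100) was at 167, 194 and 145 CPM in low nitrogen and 57.3, 44.5 and 59.8 CPM in controls. Again no control library reached the low nitrogen range, and the log2 fold change was 1.65 (SE 0.18), or 3.13-fold with an interval of 2.33 to 4.22. Of all genes tested, 0.161% and 0.416% had a larger log2 fold change than these genes. Without control replicate 3 the edgeR adjusted p of the first gene was 0.0433, within a range over its alternatives of 7.61e-18 with DESeq2 to 0.637 without low nitrogen replicate 1. Its log2 fold change stayed between 1.99 and 2.29 when any library was left out. Summed over both genes, the level was 264, 303 and 231 CPM in low nitrogen and 74.5, 57.9 and 86.5 CPM in controls, here scaled to library totals, a ratio of means of 3.65.

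**Figure D1:**
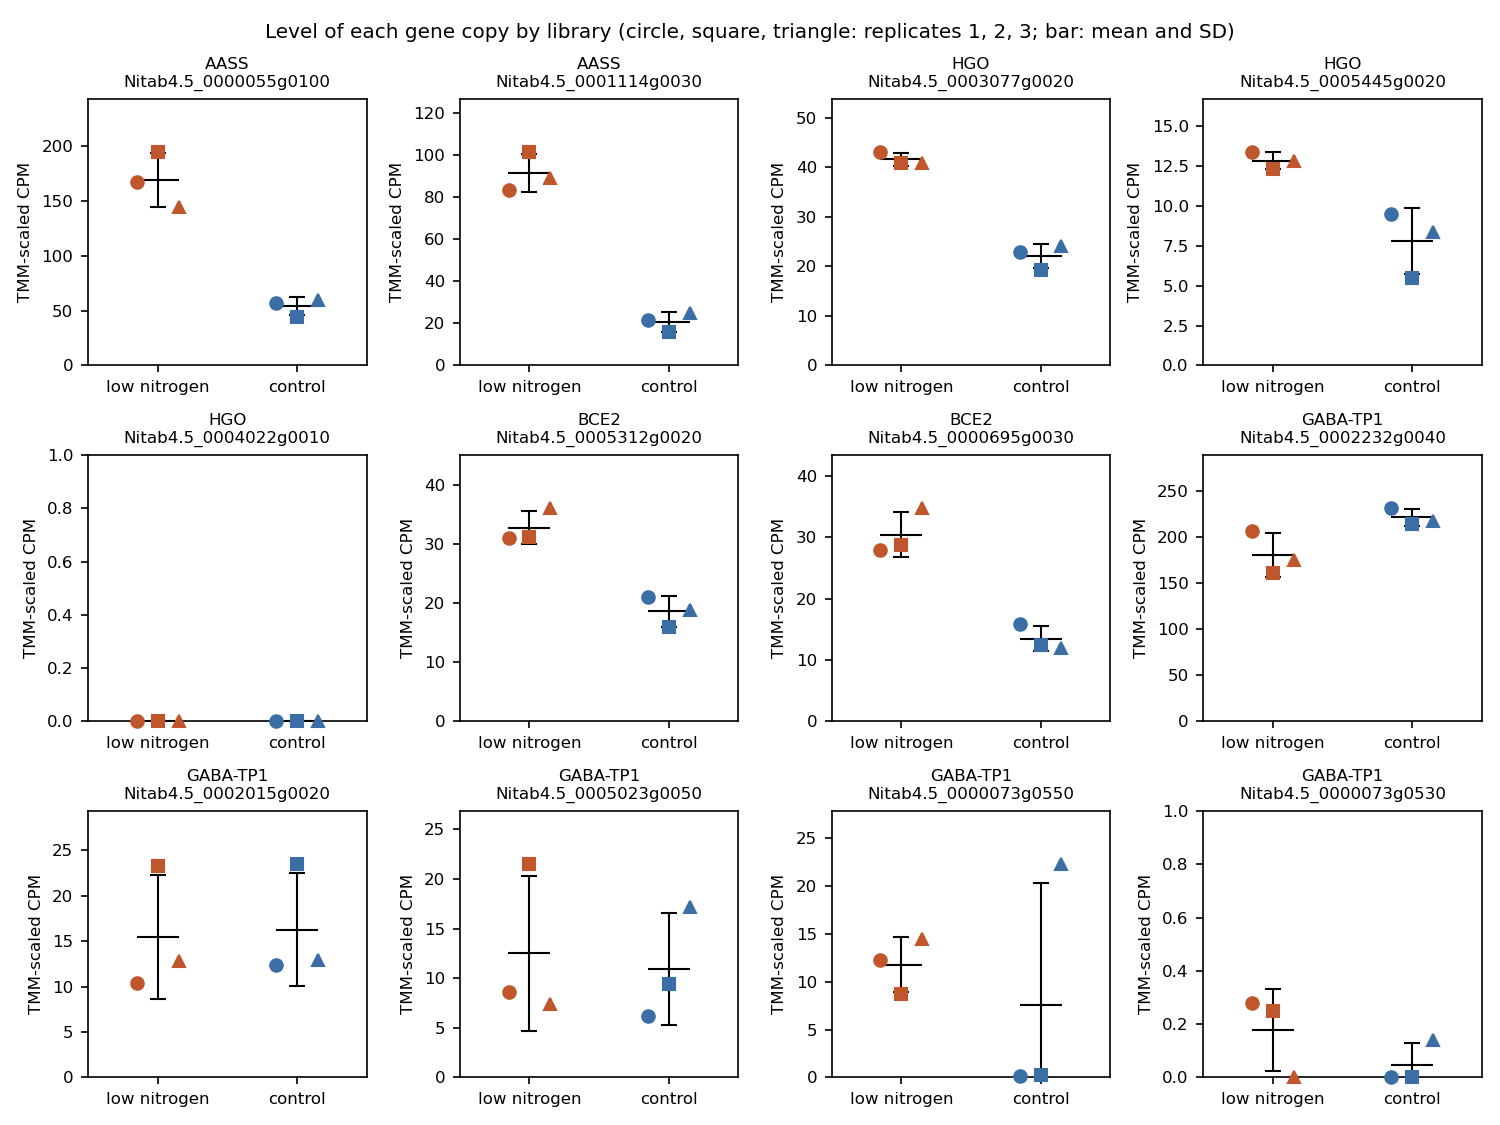
Level of each of the 12 gene copies (TMM-scaled CPM, vertical axis from 0) in the low nitrogen and control libraries, with circles, squares and triangles for replicates 1, 2 and 3 and bars for the mean and SD of 3 libraries. The AASS, HGO and BCE2 copies with counts separate the groups, whereas GABA-TP1 (Nitab4.5_0000073g0550) stands at 22.3 CPM in control replicate 3 and at 0.162 and 0.300 CPM in the other controls.

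HGO, the ring-opening enzyme of tyrosine breakdown, was represented by 2 counted genes and by 1 with no counts. HGO (Nitab4.5_0003077g0020) was at 43.0, 40.8 and 40.9 CPM in low nitrogen and 22.8, 19.3 and 24.0 CPM in controls. The low nitrogen libraries lay close together, with a mean of 41.6 ± 1.26 CPM, and the controls averaged 22.0 ± 2.45 CPM (SD, n = 3 each). The log2 fold change was 0.92 (SE 0.13), or 1.89-fold with a 95% interval of 1.53 to 2.33. HGO (Nitab4.5_0005445g0020) was at 13.4, 12.3 and 12.8 CPM in low nitrogen and 9.50, 5.48 and 8.35 CPM in controls, without overlap. Its log2 fold change of 0.72 (SE 0.22) corresponds to 1.65-fold, with an interval of 1.15 to 2.37. HGO (Nitab4.5_0004022g0010) had 0 counts in all 6 libraries, which allows a level of up to 0.192 to 0.221 CPM in the low nitrogen libraries and 0.216 to 0.230 CPM in the controls (3 counts per library total, counting error only). Whether reads of this gene were assigned to the other HGO genes cannot be told from the table, since the sources used here do not say how reads that match several genes were treated.

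BCE2, the E2 subunit of the branched-chain complex, was higher through both of its genes. BCE2 (Nitab4.5_0000695g0030) was at 27.9, 28.7 and 34.8 CPM in low nitrogen and 15.8, 12.5 and 12.0 CPM in controls. The groups were separated by a gap of more than the SD of either group, with means of 30.5 ± 3.73 CPM in low nitrogen and 13.5 ± 2.07 CPM in controls (SD, n = 3 each). The log2 fold change was 1.18 (SE 0.16), or 2.26-fold with a 95% interval of 1.73 to 2.95. BCE2 (Nitab4.5_0005312g0020) was at 31.1, 31.2 and 36.1 CPM in low nitrogen and 21.1, 15.9 and 18.8 CPM in controls. The separation was narrower here, with a log2 fold change of 0.82 (SE 0.15), or 1.76-fold with an interval of 1.38 to 2.24. Low nitrogen replicate 3 was the highest library for both BCE2 genes.

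GABA-TP1 did not follow the other enzymes. Its most highly counted gene (Nitab4.5_0002232g0040) was at 207, 161 and 175 CPM in low nitrogen and 232, 215 and 218 CPM in controls. Every control library lay above every low nitrogen library, by a small margin, and the log2 fold change was -0.29 (SE 0.16, 95% interval -0.66 to 0.08). The interval leaves room for a level between 0.634 and 1.05 times the control level. Summed over all 5 GABA-TP1 genes, the level was 251, 220.2 and 207 CPM in low nitrogen and 237, 238 and 277 CPM in controls (library totals), a ratio of means of 0.902.

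The smaller GABA-TP1 genes varied more within a group than between groups. GABA-TP1 (Nitab4.5_0002015g0020) was at 10.4, 23.2 and 12.8 CPM in low nitrogen and 12.4, 23.5 and 13.0 CPM in controls, with replicate 2 the highest library of both groups. GABA-TP1 (Nitab4.5_0005023g0050) was at 8.61, 21.5 and 7.42 CPM in low nitrogen and 6.17, 9.38 and 17.2 CPM in controls. Both groups spanned a wide range, and the log2 fold changes of -0.07 (SE 0.37) and 0.20 (SE 0.50) changed sign when single libraries were left out. GABA-TP1 (Nitab4.5_0000073g0550) held 176, 139 and 208 counts in low nitrogen replicates 1 to 3, against 2, 4 and 315 in control replicates 1 to 3. It was nearly silent in control replicates 1 and 2, whereas control replicate 3 held more counts than any low nitrogen library. With all libraries its log2 fold change was 0.63 (SE 1.30), and without control replicate 3 it was 5.60 (SE 0.44) with an edgeR adjusted p of 0.0390, against 0.422 to 0.998 over its other alternatives. The log2 fold change was 0.058 without control replicate 1, 0.066 without control replicate 2, 2.77 with a replicate block and 3.20 with limma-voom. Its size thus depends on control replicate 3. GABA-TP1 (Nitab4.5_0000073g0530) held 4, 4 and 0 counts in low nitrogen and 0, 0 and 2 in controls and was not tested.

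**Figure D2:**
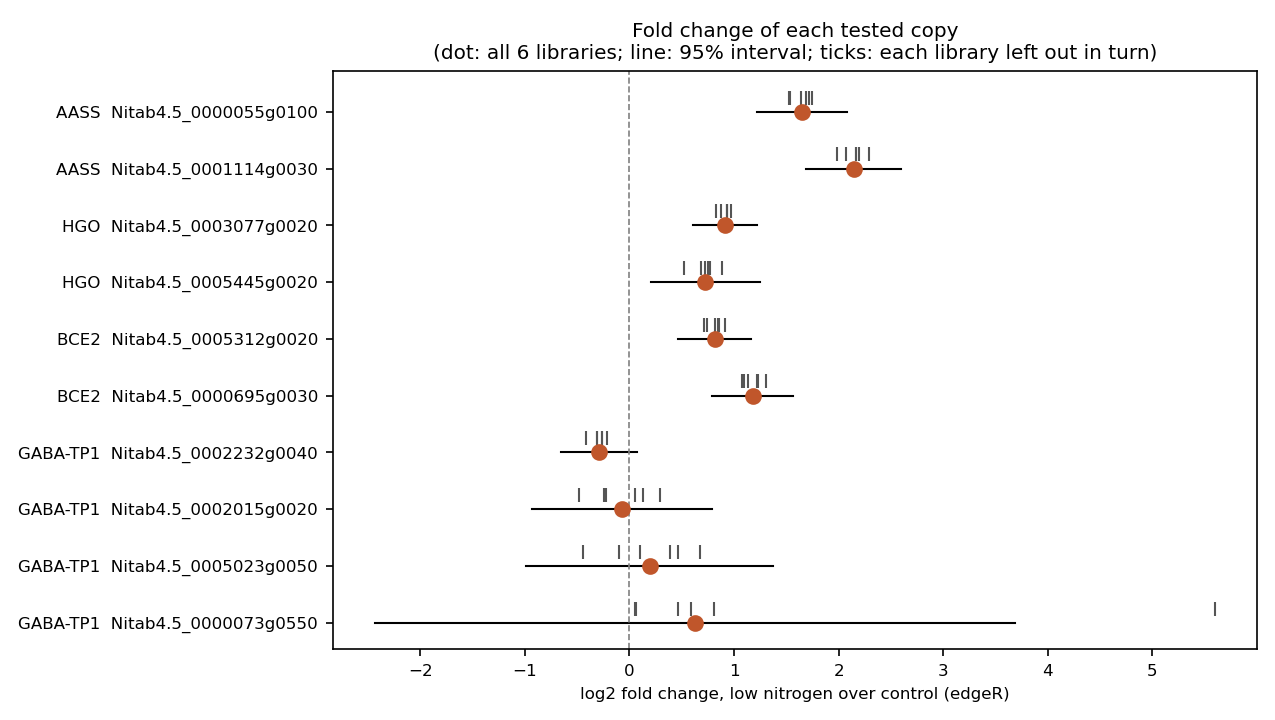
Log2 fold change of the 10 tested copies (horizontal axis, low nitrogen over control, edgeR), with dots for the fit on all 6 libraries, lines for the 95% interval and ticks for the fits that leave out 1 library each. All ticks of the AASS, HGO and BCE2 copies lie above 0, and 1 tick of GABA-TP1 (Nitab4.5_0000073g0550), without control replicate 3, lies at 5.60.

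The copies of a symbol did not contribute equally, and for AASS and BCE2 the mix differed between groups. Tobacco is an allotetraploid and commonly carries a copy of a gene from each parental genome, but the parental origin of these genes is not given in the table. AASS (Nitab4.5_0001114g0030) held 33.3%, 34.3% and 38.1% of the AASS counts in low nitrogen, against 27.2%, 26.2% and 29.3% in controls. BCE2 (Nitab4.5_0000695g0030) held 47.3%, 47.9% and 49.1% of the BCE2 counts in low nitrogen, against 42.9%, 44.1% and 39.0% in controls. In both pairs the copy with the higher fold change therefore took a larger share in low nitrogen than in controls, without overlap between groups. In every library that copy still held the smaller share of its pair. The difference between the copies' fold changes was not tested. The exact 95% binomial intervals of the shares, which cover counting error only, overlapped between groups for BCE2, with 43.9% to 50.8% in low nitrogen replicate 1 and 38.3% to 47.5% in control replicate 1. For AASS those of the nearest libraries, low nitrogen replicate 1 (31.8% to 34.9%) and control replicate 3 (26.7% to 32.0%), overlapped slightly. HGO (Nitab4.5_0003077g0020) held 76.3%, 76.9% and 76.1% of the HGO counts in low nitrogen and 70.6%, 77.9% and 74.2% in controls, with overlap. GABA-TP1 (Nitab4.5_0002232g0040) held 86.8%, 75.0% and 83.4% of its symbol's counts in low nitrogen and 92.5%, 86.6% and 80.6% in controls. Shares are of counts, not corrected for gene length, and depend on how reads were divided between similar copies.

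**Figure D3:**
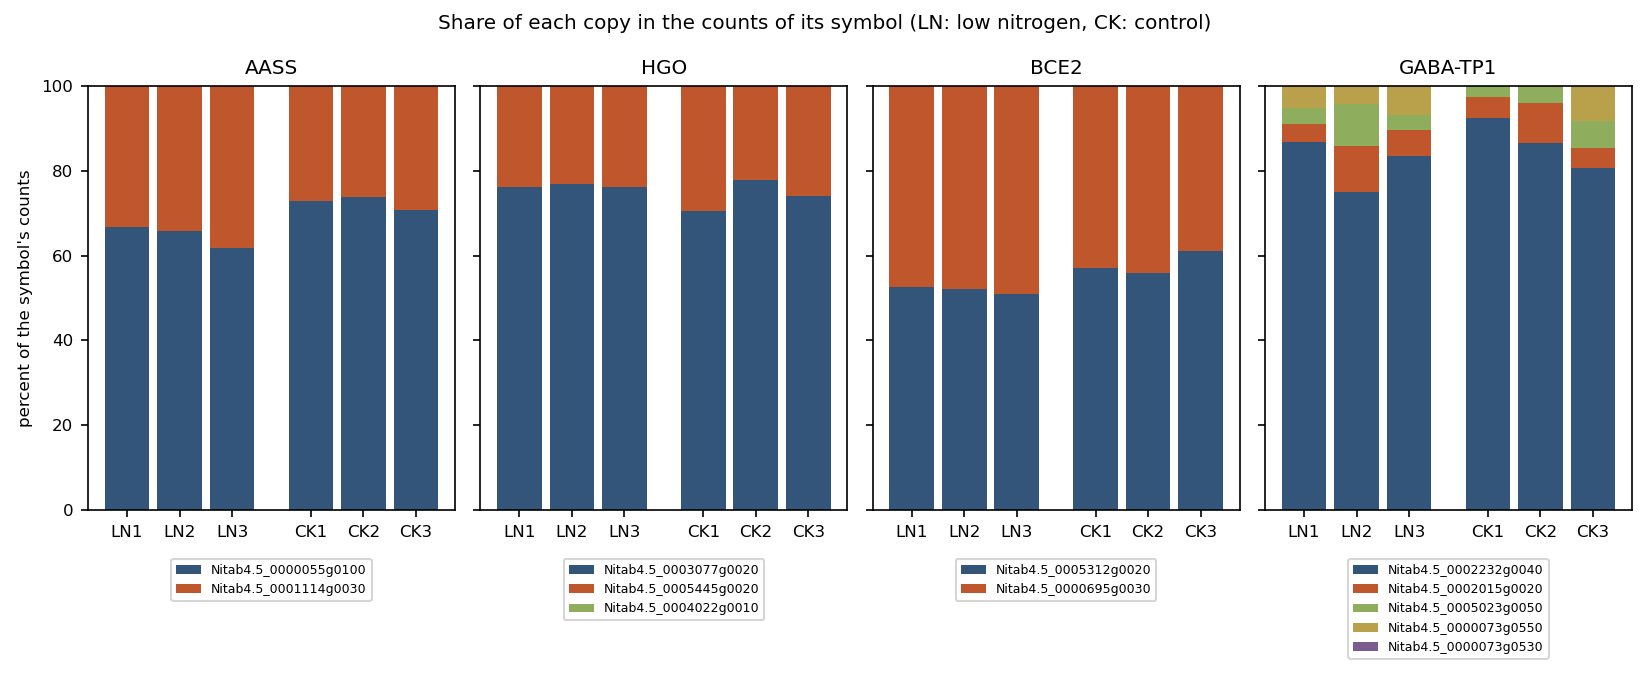
Share of each copy in the counts of its symbol (percent, vertical axis) in low nitrogen (LN1 to LN3) and control (CK1 to CK3) libraries, each bar adding up to the symbol's counts in 1 library. The second AASS copy fills 33.3% to 38.1% of the bars in low nitrogen and 26.2% to 29.3% in controls.

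The other genes of the same routes were taken from lists of symbols, apart from the 4 symbols above. In the branched-chain route, 42 of 54 genes were tested. Fold changes were above 0 for 32 of them, against 19357 of the 38482 genes tested, the background for all such counts below. Their median was 0.34 on the log2 scale. At an unadjusted p under 0.05, 11 were higher and 2 lower in low nitrogen, against the background shares of 6.10% and 5.66%, and 0 passed the edgeR threshold over all genes. The count of higher genes ran from 8 to 16 when single libraries were left out, with 16 without control replicate 3. The count over all genes at that p also moved with the library left out. In either direction, it ran from 2210 of 39298 without control replicate 1 to 5949 of 38926 without control replicate 3. With all libraries it was 4527 of 38482. Counts by direction over all genes are not given for these fits, here or below. Past the DESeq2 adjusted threshold of 0.05 were 4 higher and 0 lower genes, against 0.709% and 0.819% over all genes tested. Groups did not overlap for 15 higher and 3 lower genes. The shares over all genes tested were 9.66% and 8.54%, the background for the counts without overlap below. All 3 genes of MCCC1, a subunit of the carboxylase of leucine breakdown, were higher without overlap. The member with the smallest p, MCCC1 (Nitab4.5_0026053g0010), was at 16.9 ± 1.68 CPM in low nitrogen and 9.26 ± 0.929 CPM in controls (SD, n = 3 each; log2 fold change 0.87, SE 0.15). Both genes with the symbol At4g20930, 3-hydroxyisobutyrate dehydrogenase of valine breakdown in Arabidopsis, were also higher without overlap.

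Other steps of the branched-chain route were less uniform. All 4 tested genes of IVD, isovaleryl-CoA dehydrogenase of leucine breakdown, had fold changes above 0, and 2 of them did not overlap between groups. Of 12 tested BCAT2 genes, branched-chain aminotransferases, 9 had fold changes above 0 and 3 did not overlap. Whether the BCAT2 genes serve breakdown was not tested. The BCAT2 gene with the smallest p (Nitab4.5_0006888g0010) was at 114 ± 22.9 CPM in low nitrogen and 28.1 ± 20.8 CPM in controls, without overlap. Its log2 fold change was 2.02 (SE 0.55), and its control libraries ran from 8.70 to 50.1 CPM. The gene with the highest level in the list, Aldh6a1 (Nitab4.5_0002750g0040), a semialdehyde dehydrogenase, was at 95.2 ± 6.68 CPM in low nitrogen and 84.2 ± 6.18 CPM in controls (log2 fold change 0.18, SE 0.13). The other Aldh6a1 gene (Nitab4.5_0005908g0070) was at 81.9 ± 6.17 CPM in low nitrogen and 53.1 ± 1.19 CPM in controls (log2 fold change 0.62, SE 0.12). Both Aldh6a1 genes were higher without overlap. LPD1, a lipoamide dehydrogenase (E3) subunit that several complexes share, lay the other way in 4 of 5 genes. Whether these genes serve the branched-chain complex was not tested. LPD1 (Nitab4.5_0009767g0010) was at 25.7 ± 3.92 CPM in low nitrogen and 36.2 ± 2.88 CPM in controls (SD, n = 3 each; log2 fold change -0.49, SE 0.15). The 4 tested genes with the symbol At1g21400, the E1 alpha subunit of the same complex as BCE2, had a median log2 value of 0.36, and 0 of them separated the groups.

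In the tyrosine route, all 8 tested genes besides HGO lay above 0, against 5 of 8 without low nitrogen replicate 3. Their median was 0.22 on the log2 scale and 0.093 without that library, and without control replicate 2 it was 0.34. The unadjusted p was under 0.05 for 2 higher and 0 lower genes, against 6.10% and 5.66% over all genes tested. The higher count was 0 without control replicate 1, control replicate 2 or low nitrogen replicate 1, and 1 without any other library. Over all genes, counts in either direction without those named libraries were 2210 of 39298, 4042 of 39320 and 2539 of 39046, in that order. GSTZ2 (Nitab4.5_0000457g0340), of the glutathione transferase class that isomerises maleylacetoacetate, was at 3.56 ± 1.23 CPM in low nitrogen and 1.90 ± 0.346 CPM in controls (SD, n = 3 each; log2 fold change 0.90, SE 0.34). The GSTZ2 gene with the most counts of the list (Nitab4.5_0004176g0020) was at 115 ± 17.6 CPM in low nitrogen and 107 ± 10.6 CPM in controls, with overlap. D2HGDH, the dehydrogenase of D-2-hydroxyglutarate formed in lysine breakdown, was at 14.6 ± 2.95 CPM in low nitrogen and 10.9 ± 0.727 CPM in controls for 1 gene (Nitab4.5_0000136g0150) and at 15.7 ± 0.761 CPM in low nitrogen and 15.0 ± 1.41 CPM in controls for the other (Nitab4.5_0009648g0010). Of the flavoprotein chain that passes electrons from such dehydrogenases to respiration, 1 of 2 ETFA genes and both genes each of ETFB and Etfdh lay above 0. ETFB (Nitab4.5_0003897g0020) averaged 31.0 ± 3.81 CPM in low nitrogen against 22.1 ± 0.525 CPM in controls (log2 fold change 0.49, SE 0.13).

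The GABA shunt besides GABA-TP1 lay the other way. Of 14 tested genes 2 lay above 0, and the median was -0.23 on the log2 scale. The unadjusted p was under 0.05 for 1 higher and 3 lower genes, against 6.10% and 5.66% over all genes tested. When single libraries were left out, 2 to 4 genes lay above 0, with 4 without control replicate 3. At that p 0 to 2 were then higher and 2 to 4 lower. Over all genes, the count in either direction ran from 2210 of 39298 to 5949 of 38926 over these fits. All 6 genes of GAD3, the glutamate decarboxylase that makes GABA, had fold changes under 0. GAD3 (Nitab4.5_0003241g0010) was at 20.4 ± 1.01 CPM in low nitrogen and 36.5 ± 12.5 CPM in controls (SD, n = 3 each; log2 fold change -0.84, SE 0.23), with control replicate 1 the highest library at 50.8 CPM. The GAD3 gene with the most counts (Nitab4.5_0002214g0100) was at 264 ± 29.3 CPM in low nitrogen and 313 ± 41.5 CPM in controls, with overlap. The genes above 0 carried the symbol GAD4, of which Nitab4.5_0001180g0150 was at 13.5 ± 5.08 CPM in low nitrogen and 6.24 ± 2.78 CPM in controls, also with overlap.

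**Figure D4:**
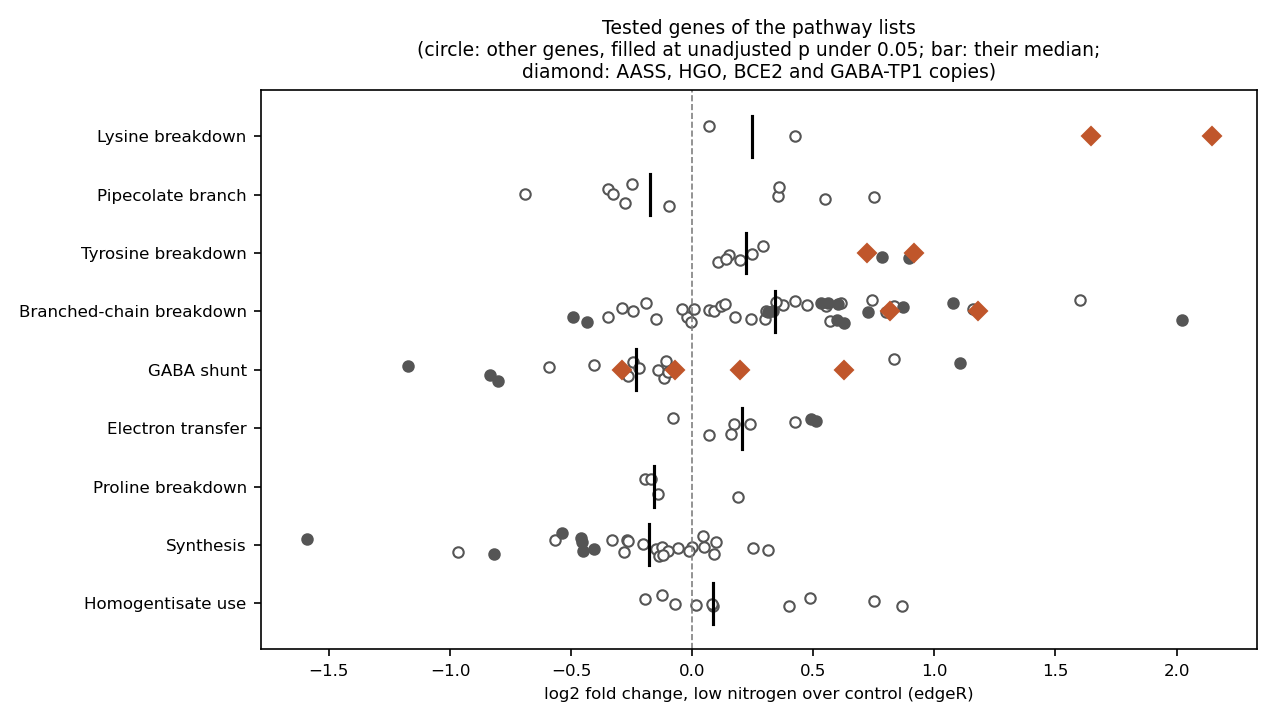
Log2 fold change (horizontal axis, low nitrogen over control, edgeR) of the tested genes of each list, with circles for genes besides AASS, HGO, BCE2 and GABA-TP1, filled at an unadjusted p under 0.05, bars for the median of the circles, and diamonds for the copies of the 4 symbols. D2HGDH stands in both the lysine and the electron transfer lists, and the median circle is at 0.34 in the branched-chain list and at -0.23 in the GABA shunt.

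Likeness to the most highly counted copy of each symbol was measured over the 6 libraries as the root-mean-square difference between centred log2(CPM + 1) profiles, among genes with a symbol and a mean of at least 5 CPM. It describes these libraries and follows from the same differences between groups. Nearest to AASS (Nitab4.5_0000055g0100) were BXL4 (Nitab4.5_0003754g0020, difference 0.171), BGAL1 (Nitab4.5_0003234g0040, 0.190) and At5g66650 (Nitab4.5_0003588g0050, 0.205). Nearest to HGO (Nitab4.5_0003077g0020) were At3g08860 (Nitab4.5_0001115g0130, 0.108), helY (Nitab4.5_0007178g0040, 0.115) and BCAS3 (Nitab4.5_0000092g0040, 0.117). For BCE2 (Nitab4.5_0005312g0020) the nearest of 22431 candidates was the HGO gene just named (0.119), followed by MCCC1 (Nitab4.5_0026053g0010, 0.124) and TIMPA (Nitab4.5_0000754g0170, 0.130). The GABA-TP1 gene with the most counts was nearest to WRKY3 (Nitab4.5_0001226g0020, 0.0337), bop1-b (Nitab4.5_0002596g0050, 0.0382) and DDX47 (Nitab4.5_0021264g0010, 0.0469). The AASS copies differed from each other by 0.264, the HGO copies by 0.170 and the BCE2 copies by 0.190, whereas GABA-TP1 (Nitab4.5_0000073g0550) differed from the most highly counted GABA-TP1 gene by 1.82.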

How the data were processed

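Polyadenylated RNA was sequenced from 3 low nitrogen and 3 control libraries of tobacco seedlings, built with a SMARTER mRNA kit per the labels' protocols. Alignment software is listed as HISAT2, without a version, per the submitters' processing notes. The sources used here do not name the counter, whether strand was used, or how multiply matching reads were handled. The authors deposited unnormalized counts for 69500 Nitab4.5 identifiers, 44455 of them with a symbol. No identifier was given coordinates or sequence here. Total counts ran from 13027374 to 15620067.

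From these counts, edgeR 4.0.16 (R 4.3.3; filterByExpr, TMM, glmQLFit and glmQLFTest) compared low nitrogen with control over 38482 genes, with Benjamini-Hochberg adjustment and a threshold of 0.05. The SE is the log2 fold change divided by the root of the F statistic. Alternatives were DESeq2 1.42.0, limma-voom (limma 3.58.1), RLE and upper-quartile factors, other filters, a replicate block and leaving out each library. The procedure was tested on simulated data as a check of the code, which is no evidence on the genes described here. Deviations from the group mean correlated at -0.31, 0.094 and -0.28 between libraries of the same replicate number. Between different numbers they correlated at -0.21 to 0.38. Deviations within so small a group constrain each other, so these values cannot show whether the numbers mark a shared batch.

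Members, lists and tests were chosen with earlier results of these data known. Every copy of the 4 symbols is named, and from each list the smallest p in each direction and the highest mean CPM. Further Aldh6a1 and BCAT2 genes were named after seeing the data and are not among the named genes counted under the alternatives. Counts per symbol within a list, and list counts under the alternatives, were added after seeing the data. List patterns were matched to the symbol column alone, where PDS1, HST, ALS3, POX2, DLD, LPD2 and FAH2 were left out as other or unclear genes and At1g21400 and At4g20930 added as locus names of listed enzymes. ALD1 and FMO1 were planned within the lysine breakdown list and were moved to a separate pipecolate list. This left D2HGDH, with 2 tested genes, as the only symbol besides AASS in the lysine list.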

Additional observations from a re-analysis of the deposited data

How the results depend on the processing

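The count of genes past the edgeR threshold was 0 with every scaling, filter and the replicate block, 588 with DESeq2 (273 higher, 0.709%, and 315 lower, 0.819%, of 38482; 4469 at an unadjusted p under 0.05) and 0 with limma-voom (4472 at an unadjusted p under 0.05, against 4527 with edgeR). It ran from 0 to 11 when single libraries were left out, with 11 without control replicate 3. Past the DESeq2 threshold were 5 of the 10 tested copies, both AASS, both BCE2 and HGO (Nitab4.5_0003077g0020). Copies higher at an unadjusted p under 0.05 numbered 6 or 7 under all alternatives. Lower copies ran from 0 to 1 when single libraries were left out, the 1 being without low nitrogen replicate 1. Over all genes, the count at that p in either direction ran from 2210 of 39298 without control replicate 1 to 5949 of 38926 without control replicate 3. With the replicate block, 6 copies were higher, 0 lower and 0 of all genes past the threshold. The replicate numbers are not said to pair the libraries, and not every library correlated best with its own number. Of 432 values for 37 named genes and symbol sums under these alternatives, 412 kept direction and side of the threshold, 9 moved past it and 11 changed sign. The sign changes came when single libraries were left out, over ranges of -0.45 to 0.67 for GABA-TP1 (Nitab4.5_0005023g0050), -0.48 to 0.29 for GABA-TP1 (Nitab4.5_0002015g0020), -0.53 to 0.12 and -0.10 to 0.40 for Prodh (Nitab4.5_0001982g0120 and Nitab4.5_0006224g0020), -0.41 to 0.33 for PRODH2 (Nitab4.5_0001982g0070), -0.27 to 0.11 for ETFA (Nitab4.5_0004600g0010) and -0.025 to 0.17 for GSTZ2 (Nitab4.5_0004176g0020). The cause was not tested. No scaling moved the median of all genes by 0.1 on the log2 scale. Each scaling assumes that most genes do not change, so a median near 0 is no check on it. Depth limits statements on the copies with 0 to 4 counts in a library.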

Other observations

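Genes that make the same amino acids lay mostly under 0 on the log2 fold change scale. Of 28 tested genes of lysine, branched-chain and tyrosine synthesis, 6 lay above 0, and the median was -0.18 on the log2 scale. With single libraries left out, the median ran from -0.28 without control replicate 3 to -0.14 without control replicate 1. The unadjusted p was under 0.05 for 0 higher and 7 lower genes, against 6.10% and 5.66% over all genes tested. None (0) passed the edgeR threshold over all genes. The count of lower genes ran from 2 (without control replicate 1 or low nitrogen replicate 2) to 10 (without low nitrogen replicate 3). It was 4 without low nitrogen replicate 1. Over all genes, the count at that p in either direction moved too. It was 2210 of 39298 without control replicate 1 and 3659 of 39144 without low nitrogen replicate 2. Without low nitrogen replicates 1 and 3 in turn it was 2539 of 39046 and 5653 of 39290. All 7 tested genes of TYRAAT2, arogenate dehydrogenase of tyrosine synthesis, lay under 0. TYRAAT2 (Nitab4.5_0007539g0020) was at 1.89 ± 0.603 CPM in low nitrogen and 5.72 ± 2.14 CPM in controls (SD, n = 3 each), without overlap (log2 fold change -1.59, SE 0.36). PAT (Nitab4.5_0000214g0060), the prephenate aminotransferase before it and the gene with the most counts of the list, was at 86.9 ± 31.6 CPM in low nitrogen and 129 ± 16.5 CPM in controls (SD, n = 3 each), with overlap. The synthesis gene with the smallest p among those above 0, ilvH (Nitab4.5_0003215g0030), was at 11.3 ± 2.03 CPM in low nitrogen and 9.47 ± 1.45 CPM in controls.

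Genes of the routes from homogentisate to tocopherol and plastoquinone, rather than to breakdown, showed no separation of the groups. Of 10 tested genes 7 lay above 0, their median was 0.084 on the log2 scale, and all 10 overlapped between groups. Without low nitrogen replicate 1 the count was 3 of 10 and the median -0.037. Without control replicate 3 the median was 0.39, with 3 genes higher at an unadjusted p under 0.05. In that fit 5949 of all 38926 genes were under that p in either direction. Over the other libraries left out, the median ran from 0.0029 without control replicate 2 to 0.26 without low nitrogen replicate 3. The list therefore has no stable direction. VTE3 (Nitab4.5_0000187g0020), with the most counts of the list, was at 26.1 ± 2.98 CPM in low nitrogen and 27.4 ± 1.45 CPM in controls (SD, n = 3 each). HPT1 (Nitab4.5_0001869g0020), which joins homogentisate to its side chain, was at 10.2 ± 2.05 CPM in low nitrogen and 11.7 ± 1.75 CPM in controls. VTE4 (Nitab4.5_0006250g0010) was at 1.82 ± 0.443 CPM in low nitrogen and 0.989 ± 0.572 CPM in controls. The pipecolate branch, which makes an immune signal from lysine, was planned within the lysine breakdown list. In this branch 4 of 10 tested genes lay above 0, with a median of -0.17 on the log2 scale. That direction turned when single libraries were left out, with 8 of 13 above 0 without control replicate 2, 7 of 13 without control replicate 3 or low nitrogen replicate 3, and 7 of 12 without low nitrogen replicate 1. The median then ran from -0.26, without low nitrogen replicate 2, to 0.27, without control replicate 3. Without low nitrogen replicate 2, 2 genes were lower at an unadjusted p under 0.05. In that fit 3659 of all 39144 genes were under that p in either direction. ALD1 (Nitab4.5_0002683g0070), its aminotransferase, was at 62.4 ± 5.38 CPM in low nitrogen and 74.2 ± 2.98 CPM in controls, and FMO1 (Nitab4.5_0006796g0010) at 1.20 ± 0.751 CPM in low nitrogen and 0.718 ± 0.368 CPM in controls. Of 4 proline dehydrogenase genes 1 lay above 0, with a median of -0.16 on the log2 scale. Without control replicate 2 the count was 3 of 4 and the median 0.22, without low nitrogen replicate 3 it was 2 of 4 and 0.012, without low nitrogen replicate 1 the count was 0 of 4, and without control replicate 3 or low nitrogen replicate 2 the median was -0.40 or -0.32. PRODH2 (Nitab4.5_0001982g0070) was at 231 ± 49.8 CPM in low nitrogen and 259 ± 132 CPM in controls, with control replicate 2 the highest library at 410 CPM.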
